A study of Homo sapiens with 6 samples.

Results

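The ATP-binding cassette (ABC) transporter genes were taken by their symbols, as every gene of the count tables named ABC with a family letter from A to G and a number. This gave 46 of the 47470 genes listed. They comprised 7 drug efflux members, 27 lipid and organelle transporters, 8 other ABCB and ABCC members, and the 4 ABCE and ABCF members, which have no membrane domains. Counts came from RNA of HEK293T, an embryonic human kidney cell line with the large T antigen of SV40. There were 3 libraries of untreated wild-type cells and 3 of cells of the line given 1 mM valproic acid (VPA), which inhibits histone deacetylases, for 1 day. The labels number the 3 libraries of a condition without saying whether they came from separate cultures, so p-values measure the spread between these libraries, which may be technical.

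ABC proteins bind and hydrolyse ATP on paired nucleotide-binding domains, and most use it to move a substrate through a membrane. P-glycoprotein (ABCB1), the multidrug resistance proteins of the ABCC family and ABCG2 expel drugs and conjugated metabolites from cells, in kidney as in other tissues. Most ABCA and many ABCG members move sterols and phospholipids, ABCD members carry fatty acids and cobalamin within the cell, and ABCE1 with the ABCF proteins lacks the membrane domains and acts on ribosomes.

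The libraries held 18622267 to 18828495 counts on genes, so depth differed little. Of the 46 members 31 had enough counts for edgeR's filter and entered its quasi-likelihood test with 15298 genes in all, while 15 had too few. A gene was called up- or down-regulated at an adjusted p under 0.05 with a log2 fold change of 1 or more in either direction, and higher or lower at that adjusted p alone. The values below are normalized counts, meaning counts divided by TMM-scaled library size and multiplied by the mean of those sizes. The 9 markers set for this line, among them PAX2, SALL1, VIM and NEFM, were all tested. Of 18 marker entries for other cell types 2 were tested. Markers of hepatocytes summed to at most 3.15 normalized counts in any library and those of differentiated kidney (UMOD at 0) to at most 1.05. Endothelial markers summed to at most 4.19 in untreated and 17.2 to 24.1 in VPA-treated libraries, of which VWF held most and PECAM1 and CDH5 had 5 and 7 counts over all libraries. Leukocyte markers went from between 15.5 and 26.2 to between 28.9 and 40.2. Erythroid markers were at 0 in untreated libraries and at 2.87 to 4.82 in VPA-treated ones. The part of such cells in the results was not tested.

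Of the 31 tested ABC members 10 were up-regulated after VPA and 0 were down-regulated, where 12.0% of all tested genes were up-regulated and 0.503% down-regulated. DESeq2 also gave 0 down-regulated members, and 7 members were lower at an unadjusted p under 0.05 in edgeR. At the adjusted p alone 18 were higher, 7 were lower and 6 passed in neither direction, against 32.9% of all tested genes higher and 30.0% lower. The median log2 fold change was 0.24 over the tested members and 0.0058 over all tested genes. Every VPA-treated library lay above every untreated one in 17 tested members and below in 7, against 34.8% and 31.0% of all tested genes. In bulk RNA, more cells that express a gene and more RNA per cell cannot be told apart.

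Up-regulation was frequent among sparsely counted genes in general. Of 8 members with a mean under 100 normalized counts 5 were up-regulated, against 29.1% of all genes at that level. ABCC9 and ABCG5 are among the 5, had under 10 counts in each untreated library and passed the filter only through the VPA-treated ones. With at least 10 counts required in every library both left the test and 8 members in all were up-regulated. At the adjusted p alone 6 of the 8 were higher and 0 lower, beside 43.9% and 6.97% of those genes. In the class from 100 to 1000 it was 4 of 11 members against 8.84% of genes, with 8 higher and 2 lower at the adjusted p alone beside 38.9% and 25.4%. Above 1000 it was 1 of 12 members, ABCA3, against 0.732% of genes. In that top class 4 members were higher and 5 lower at the adjusted p alone, beside 14.6% and 57.4% of genes.

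**Figure D1:**
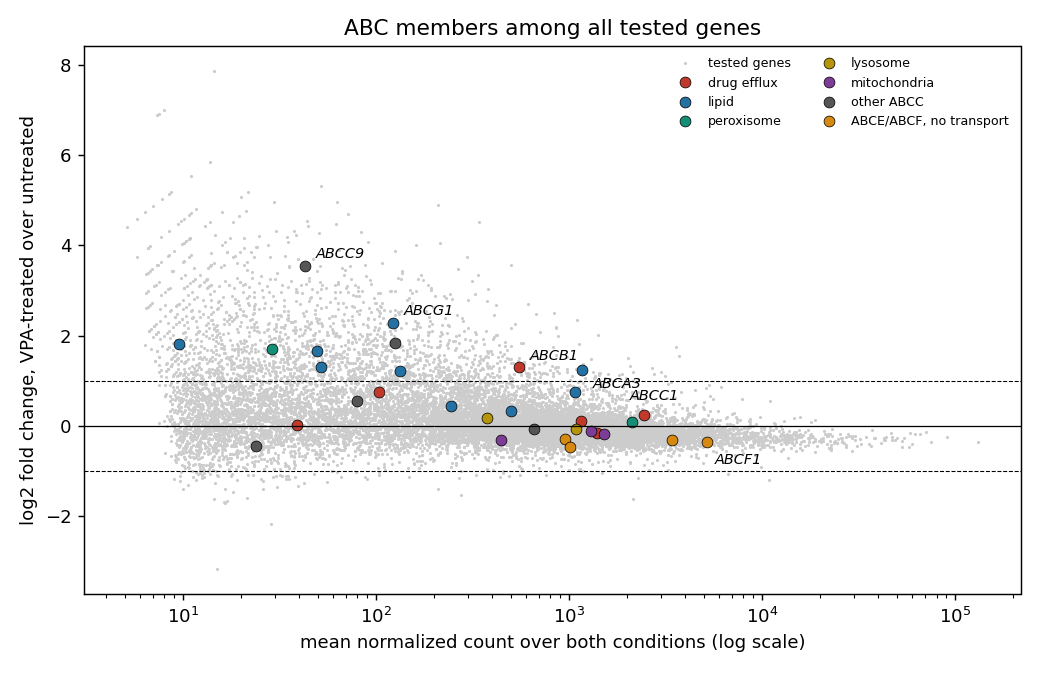
Log2 fold change of VPA-treated over untreated cells (vertical axis) against the mean normalized count (horizontal axis, log scale) for the 15298 tested genes (grey points) and the 31 tested ABC members (coloured by class), with dashed lines at the fold change threshold of 1. Members with few counts spread upwards as other genes do, while ABCA3 and ABCB1 lie above the threshold among more abundant genes and the ABCE and ABCF members lie just under 0.

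Drug efflux members were set beside lipid and organelle transporters, a grouping by gene function that the sample labels do not make. Counts below stand beside 12.0% of all tested genes up-regulated, 32.9% higher and 30.0% lower. These shares are not matched to the count levels of each class. Up-regulated were 29.1% of genes under 100 normalized counts and 0.732% of those above 1000. Of the 7 drug efflux members 6 were tested, with 1 up-regulated, 4 higher and 1 lower at the adjusted p alone and a median log2 fold change of 0.18. Of the 27 lipid and organelle transporters 16 were tested, with 7 up-regulated, 11 higher and 2 lower and a median of 0.60. Most of the latter came from the lipid transporters, where all 9 tested of 18 listed were higher, 6 of them up-regulated, with a median of 1.24. ABCG5, 1 of the 6, entered the test only through its VPA-treated counts, which fixed its direction. Members with few counts in both conditions could not enter. The difference between the classes was not tested, since the members of a class are not replicates. It also moved with which sparsely counted members were included, from -0.27 when each library had to hold 10 counts to -0.97 without a filter, against -0.42 here.

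**Figure D2:**
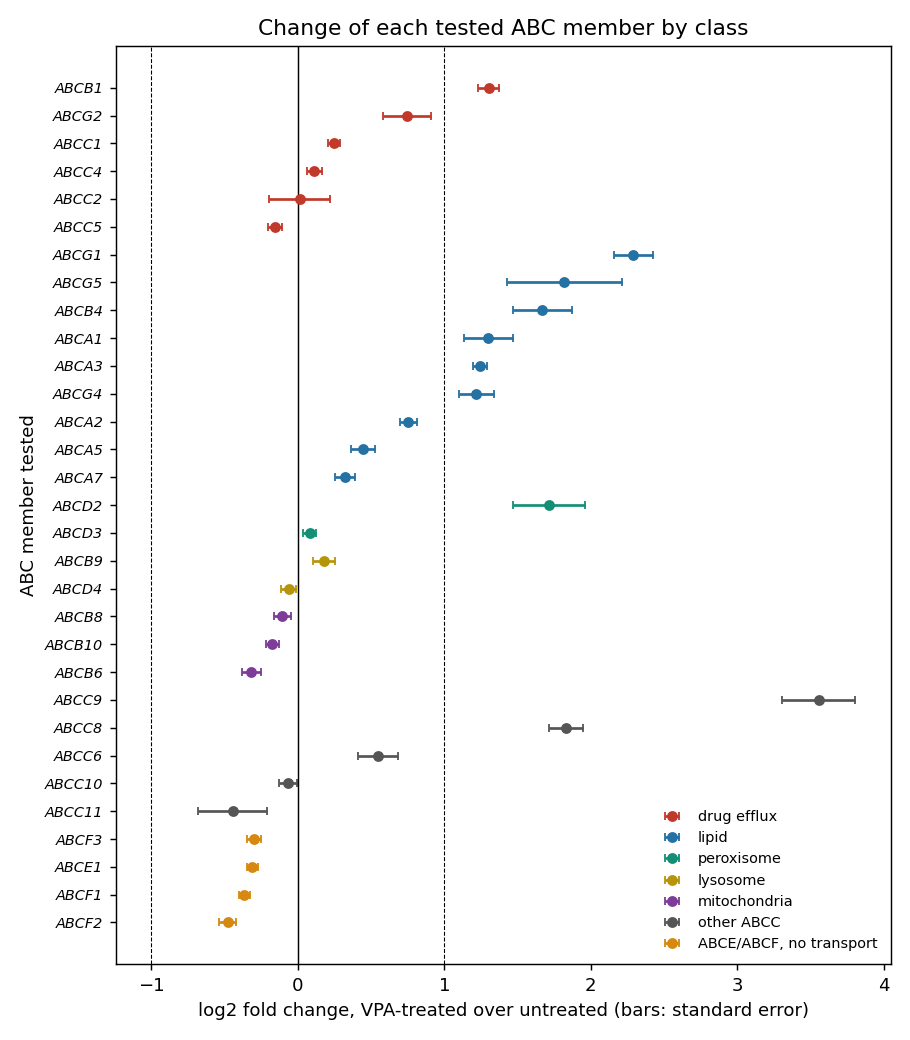
Log2 fold change of VPA-treated over untreated cells for each of the 31 tested members (points, horizontal axis) with its standard error (bars), grouped and coloured by class. The 9 lipid transporters all lie to the right of 0, the drug efflux members run from -0.15 to 1.30, and the 4 ABCE and ABCF members lie between -0.48 and -0.30. ABCG5 and ABCC9 entered the test only through their VPA-treated counts.

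Among the drug efflux members ABCB1, which encodes P-glycoprotein, was up-regulated. It had 282, 354 and 315 normalized counts in the untreated and 769, 760 and 819 in the VPA-treated libraries, with no overlap. The log2 fold change was 1.30 with a standard error of 0.071 (adjusted p = 9.58e-13, edgeR's quasi-likelihood test), and it stayed between 1.22 and 1.38 with any one library left out. ABCB1 occupies chromosome 7 from 87503017 to 87713295, minus strand (RefSeq on GRCh38.p14). RUNDC3B overlaps it on the opposite strand and also went from 117 ± 19.6 to 222 ± 26.1 normalized counts (SD, n = 3 each; log2 fold change 0.93, adjusted p = 5.9e-07, edgeR). The library kit keeps the strand, but the strand setting of the counting is not given in the sources used here, so how reads of both genes were divided is uncertain.

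The other drug efflux members moved little or stood on few counts. ABCC1, the multidrug resistance protein that exports glutathione conjugates, had 2281, 2258 and 2186 normalized counts in untreated and 2643, 2695 and 2626 in VPA-treated libraries. All VPA-treated values were above the untreated ones, but the log2 fold change was 0.24 with a standard error of 0.041 (adjusted p = 2.26e-05, edgeR). ABCG2, the breast cancer resistance protein that exports urate and many drugs, had 76.6, 104 and 52.5 against 128, 124 and 138. Its log2 fold change was 0.75 with a standard error of 0.16 (adjusted p = 0.000548, edgeR). Untreated library 2 was the highest of a wide untreated spread, and without it ABCG2 passed both thresholds with 1.00. Without untreated library 3, the lowest, the log2 fold change was 0.52.

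ABCC4, which exports cyclic nucleotides and nucleotide analogues, had 1074, 1165 and 1090 normalized counts in untreated and 1188, 1188 and 1224 in VPA-treated libraries. The groups did not overlap but lay close, with a log2 fold change of 0.11 (adjusted p = 0.0495, edgeR), and the call was lost in 8 of 14 alternatives, among them leaving out any library except untreated library 2. ABCC5, also an exporter of cyclic nucleotides, was the 1 drug efflux member that was lower. It had 1476, 1509 and 1408 in untreated and 1288, 1325 and 1335 in VPA-treated libraries, and the log2 fold change was -0.15, standard error 0.046 (adjusted p = 0.00621, edgeR). The call was lost with upper quartile scaling (-0.089) and with library totals (-0.023).

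ABCC2, the exporter of bilirubin conjugates in liver and kidney, had 25.9, 48.2 and 42.0 normalized counts in untreated and 34.5, 42.4 and 40.2 in VPA-treated libraries. These overlapped, and the log2 fold change of 0.015 was far under its standard error of 0.21 (adjusted p = 0.957, edgeR). A change as small as those of ABCC1 or ABCC4 could not be told from this spread. ABCC3, its basolateral relative, had 0 counts in each untreated library and 1, 3 and 3 counts in the VPA-treated ones, and was not tested.

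The composition of drug efflux transcripts shifted along with these values. On a scale of counts per unit of library size (CPM) and per kilobase of the longest GENCODE transcript, ABCB1 made up 6.39%, 7.67% and 7.32% of the summed level of the 7 members in untreated libraries and 14.9%, 14.5% and 15.5% in VPA-treated ones. ABCC5 went from 29.3% ± 0.41 to 22.3% ± 0.17 (SD, n = 3 each). ABCC1 held 39.9% ± 1.14 and 40.0% ± 0.78, the largest share at this length. The shares depend on the length used. With the median in place of the longest transcript, ABCC5 stood above ABCC1 in untreated cells, at 42.3 ± 1.5 and 38.9 ± 0.86 CPM per kilobase, and ABCB1 stood above ABCC1 after VPA, at 53.0 ± 2.15 and 46.0 ± 0.62 (SD, n = 3 each). The ratio of ABCB1 to ABCC1 counts within a library, which no scaling of libraries can move, was 0.124, 0.157 and 0.144 in untreated and 0.291, 0.282 and 0.312 in VPA-treated libraries (two-sided exact permutation test, p = 0.1, which is the lower limit for groups of 3).

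**Figure D3:**
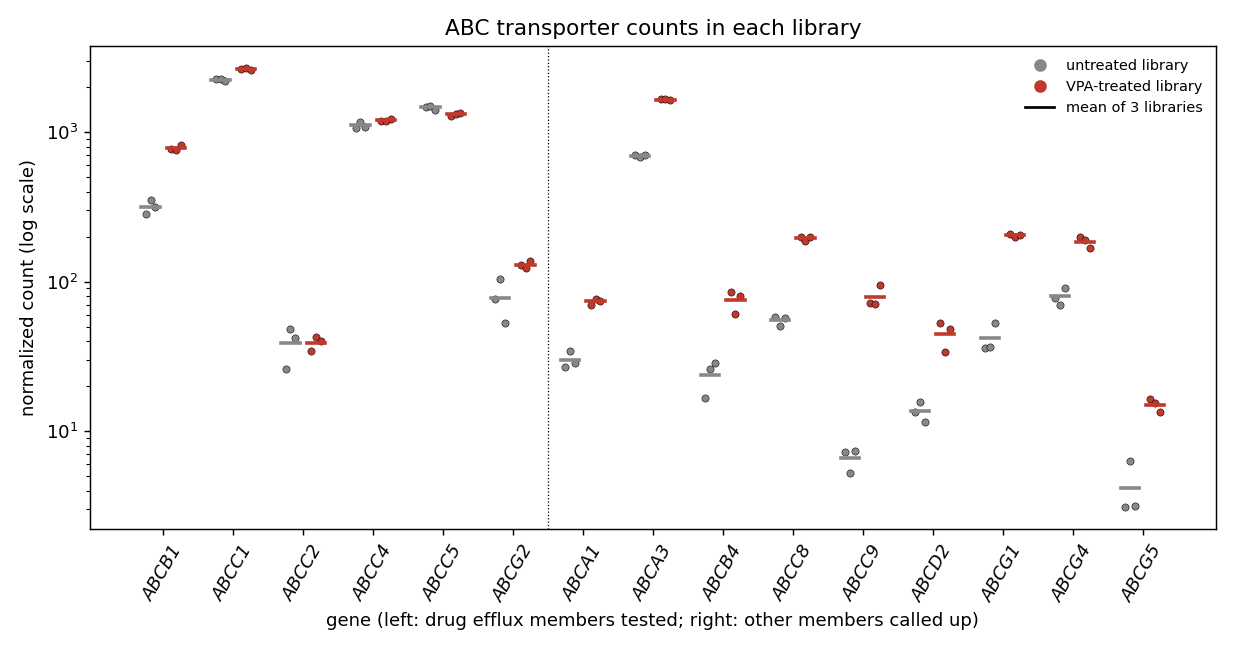
Normalized counts (vertical axis, log scale) of the 6 tested drug efflux members (left of the dotted line) and the 9 other up-regulated members (right) in each untreated (grey) and VPA-treated (red) library, with bars at the mean of 3 libraries. ABCB1 stands apart from the nearly level ABCC1, ABCC2, ABCC4 and ABCC5. In the 9 genes at right the conditions do not overlap, which adds nothing to the call that selected them.

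Of the lipid transporters ABCG1, which passes cholesterol to high-density lipoprotein, had the largest increase. It had 36.2, 36.6 and 52.5 normalized counts in untreated and 209, 200 and 205 in VPA-treated libraries. Each VPA-treated library held several times the untreated values, and the log2 fold change was 2.29 with a standard error of 0.13 (adjusted p = 2.11e-12, edgeR). ABCG4, its close relative that is expressed in brain, had 77.6, 70.1 and 91.3 against 199, 189 and 169. Its log2 fold change was 1.22 with a standard error of 0.12 (adjusted p = 1.21e-08, edgeR), so that the ratio of ABCG1 to ABCG4 counts went from 0.52 ± 0.054 to 1.11 ± 0.093 (SD, n = 3 each). ABCA1, which loads cholesterol and phospholipid onto apolipoprotein A-I, had 26.9, 34.5 and 28.3 against 70.0, 77.1 and 74.7. The groups did not overlap, with a log2 fold change of 1.30 and a standard error of 0.17 (adjusted p = 6.1e-07, edgeR).

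ABCA3, the phospholipid transporter of surfactant-storing lamellar bodies, had the most counts of the up-regulated members, with no scaling for transcript length. It had 702, 684 and 703 normalized counts in untreated and 1659, 1657 and 1634 in VPA-treated libraries. Libraries of a condition were nearly equal, and the log2 fold change was 1.24 with a standard error of 0.048 (adjusted p = 3.23e-15, edgeR), the smallest p of any member. ABCA2, a sterol transporter of endosomes and lysosomes in nervous tissue, had 868, 807 and 734 against 1433, 1325 and 1310. It was higher without reaching the fold change threshold, with a log2 fold change of 0.76 and a standard error of 0.058 (adjusted p = 3.15e-10, edgeR). The ratio of ABCA3 to ABCA2 counts was 0.81 to 0.96 in untreated and 1.16 to 1.25 in VPA-treated libraries. ABCA5, a lysosomal sterol transporter, and ABCA7, a phospholipid transporter named in Alzheimer disease risk, were higher by 0.45 and 0.32 on the log2 scale (adjusted p = 6.08e-05 and 0.000286, edgeR).

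ABCB4, the phosphatidylcholine floppase of bile canaliculi, had 16.6, 26.2 and 28.3 normalized counts in untreated and 85.3, 60.7 and 80.4 in VPA-treated libraries. Its log2 fold change was 1.67 with a standard error of 0.20 (adjusted p = 2.97e-07, edgeR). ABCB4 is the nearest paralog of ABCB1 and lies 27.0 kb from it on the same strand, so that both neighbours were up-regulated. The ratio of ABCB1 to ABCB4 counts, 11.1 to 17.0 in untreated and 9.01 to 12.5 in VPA-treated libraries, overlapped between conditions (exact permutation test, two-sided, p = 0.2). ABCG5, the partner of ABCG8 in sterol export to bile and gut, rested on 59 counts over the 6 libraries. It had 3.11, 6.28 and 3.15 against 16.3, 15.4 and 13.4 normalized counts, and its fitted log2 fold change was 1.82, standard error 0.39. It too entered the test only through the VPA-treated libraries, so its p is not given. The gene overlaps the start of ABCG8 on the opposite strand, and ABCG8 had 5 counts in untreated and 13 in VPA-treated libraries.

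Of the 7 tested organelle transporters 2 were higher, 2 were lower and 3 passed in neither direction. In peroxisomes ABCD2, a carrier of very-long-chain fatty acids, had 13.5, 15.7 and 11.5 normalized counts in untreated and 52.7, 33.7 and 47.9 in VPA-treated libraries. It was up-regulated with a log2 fold change of 1.71 and a standard error of 0.25 (adjusted p = 3.14e-06, edgeR). ABCD3, the abundant carrier of bile acid precursors and branched-chain fatty acids, had 2061 ± 94.0 and 2181 ± 66.5 normalized counts (SD, n = 3 each), and its log2 fold change of 0.082 did not pass (adjusted p = 0.121, edgeR). It was higher with upper quartile scaling, library totals or the replicate number as a block, with 0.15, 0.21 and 0.082 (adjusted p = 0.00817, 0.000336 and 0.0284, edgeR).

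Mitochondrial members stood at or under the untreated level. ABCB6, a porphyrin transporter also found at other membranes, had 504, 505 and 476 normalized counts in untreated and 384, 394 and 413 in VPA-treated libraries. No values overlapped, and the log2 fold change was -0.32 with a standard error of 0.064 (adjusted p = 0.000193, edgeR). ABCB10, which takes part in haem synthesis, was lower by less, at -0.17 (adjusted p = 0.00305, edgeR). That call was lost with upper quartile scaling and library totals, with -0.11 and -0.041. ABCB8 had -0.10 and did not pass (adjusted p = 0.103, edgeR), and it turned to 0.027 with library totals. It was lower in 3 of 14 alternatives, among them without VPA library 1, at -0.16 (adjusted p = 0.0151). Of the lysosomal pair, the peptide transporter ABCB9 was higher by 0.18 (adjusted p = 0.0377, edgeR) but lost the call in 7 of 14 alternatives, among them without untreated library 1 or 2 or VPA library 1 or 2, and ABCD4, which exports cobalamin, had -0.063 (adjusted p = 0.314).

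Among the other ABCC members the sulfonylurea receptors, which transport nothing themselves but gate ATP-sensitive potassium channels, were both up-regulated. ABCC9 (SUR2) had 7.25, 5.23 and 7.35 normalized counts in untreated and 71.9, 70.3 and 94.8 in VPA-treated libraries. The groups did not overlap, and the fitted log2 fold change was 3.55, standard error 0.25, but ABCC9 entered the test only through its high VPA-treated counts, so its p is not given. ABCC8 (SUR1) had 58.0, 50.2 and 56.7 against 198, 188 and 200, and its log2 fold change was 1.83, standard error 0.12 (adjusted p = 1.17e-11, edgeR). The ratio of ABCC8 to ABCC9 counts went from 7.71 to 9.60 in untreated to between 2.11 and 2.76 in VPA-treated libraries. The channel pores they gate were higher by less, KCNJ8 from 421 ± 32.7 to 521 ± 16.2 and KCNJ11 from 233 ± 14.0 to 343 ± 26.0 normalized counts (SD, n = 3 each; log2 fold changes 0.31 and 0.56, adjusted p = 0.000443 and 4.45e-06, edgeR).

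ABCC6, which releases ATP from liver and kidney cells, had 73.5, 55.5 and 65.1 normalized counts in untreated and 93.9, 89.6 and 101 in VPA-treated libraries. Its log2 fold change was 0.55 with a standard error of 0.14 (adjusted p = 0.00145, edgeR). Reads of ABCC6 can be shared with the near-identical ABCC6P1 and ABCC6P2, which had 32 and 39 counts in untreated and 86 and 48 in VPA-treated libraries, so its value is uncertain. ABCC10, a broad drug exporter of endomembranes, had 676 ± 31.5 and 646 ± 40.8, and ABCC11, the exporter of earwax and sweat precursors, 27.5 ± 1.77 and 20.2 ± 5.06 normalized counts (SD, n = 3 each). Neither passed (adjusted p = 0.362 and 0.106, edgeR). ABCC11 was lower without VPA library 2, at -0.67 (adjusted p = 0.0383).

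The 4 ABCE and ABCF members were all lower at the adjusted p alone, and stayed so under all 14 alternatives. ABCF1, an initiation factor partner, had 5945, 5959 and 5705 normalized counts in untreated and 4661, 4508 and 4504 in VPA-treated libraries, and its log2 fold change was -0.37, standard error 0.039 (adjusted p = 5.24e-08, edgeR). ABCF2 had the largest decrease of any member, from 1184, 1197 and 1159 to 903, 871 and 769. Its log2 fold change was -0.48 with a standard error of 0.057 (adjusted p = 2.23e-07, edgeR). ABCE1, which splits ribosomes for recycling, and ABCF3 had -0.31 and -0.30 (adjusted p = 5.2e-07 and 1.86e-05, edgeR). ABCE1, ABCF1 and ABCF2 averaged over 1000 normalized counts, where 57.4% of all tested genes were lower with a median log2 fold change of -0.15, and ABCF3 stood in the class below, where 25.4% were lower. The 46 members together summed to 27005 to 27506 normalized counts in untreated and 27481 to 28120 in VPA-treated libraries, ranges that overlapped. Before scaling they summed to 25725 to 26487 and 28529 to 29345 counts, which did not overlap. A change of the family total thus depends on the scaling. Lipid transporters alone summed to 2282 to 2440 and 4340 to 4609 normalized counts, without overlap.

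The 15 members that were not tested had 0 to 46 counts each over the 6 libraries, 42 in all untreated and 175 in all VPA-treated libraries together. ABCA10 with 46 counts and ABCA8 with 45, both of the ABCA5-like cluster on chromosome 17, had the most. ABCA4, the retinoid flippase of photoreceptors, had 1, 0 and 0 counts in untreated and 10, 13 and 5 in VPA-treated libraries. ABCB5, a relative of ABCB1 known from melanocytes, had 1, 1 and 0 against 12, 5 and 6. ABCA12, the lipid transporter of the skin barrier, had 1, 0 and 1 against 9, 3 and 4, and ABCA6 had 0 in each untreated library against 4, 1 and 3. Without the filter ABCA4, ABCA6, ABCA8, ABCA12, ABCB5 and ABCC3 were also up-regulated, beside 2519 of the 26353 genes tested in that fit. All 6 rested on few counts, ABCA6 and ABCC3 on 0 in untreated libraries, so their p is not given. ABCA9, ABCA13, ABCB11, ABCC12, ABCC13 and ABCG8 had 1 to 18 counts each and were not called there, nor was ABCA10 (adjusted p between 0.132 and 0.672, edgeR).

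**Figure D4:**
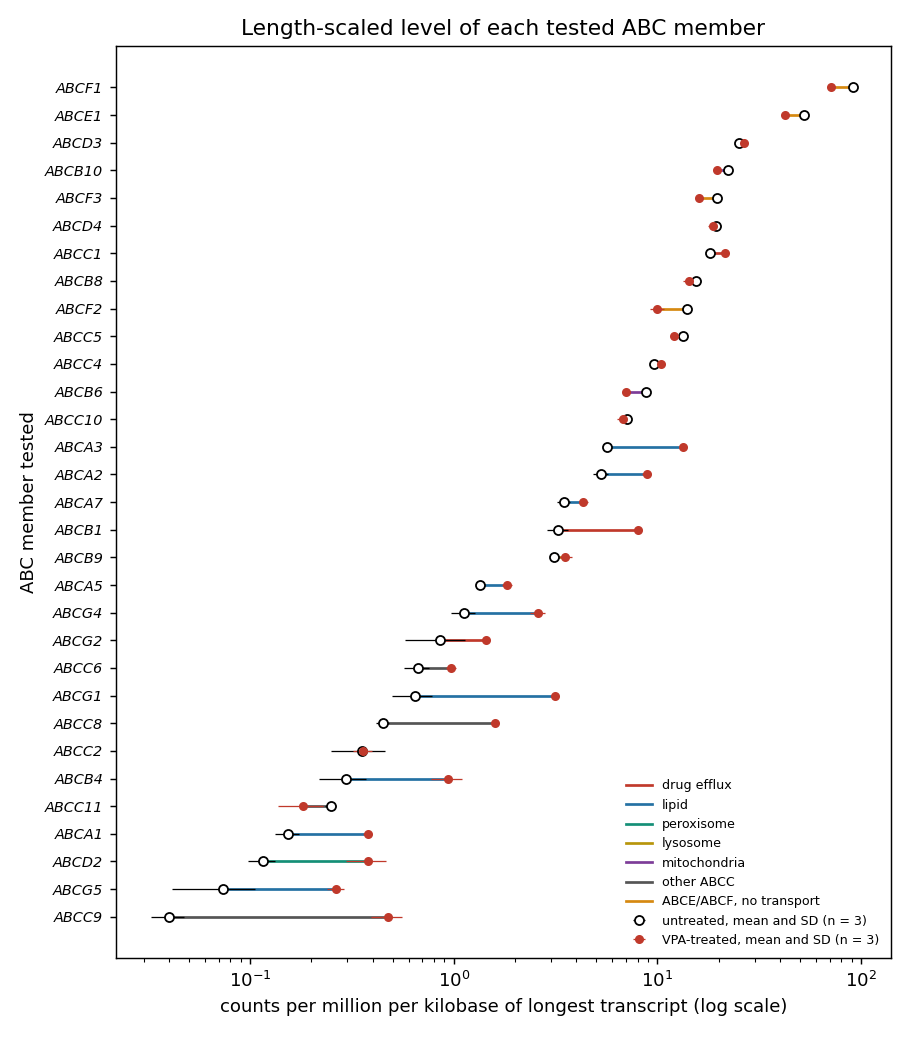
Level of each tested member in CPM per kilobase of its longest transcript (horizontal axis, log scale), with open points for untreated and red points for VPA-treated cells (mean and SD, n = 3 each) joined by a line in the colour of the class and ordered by the untreated level. Members at the top moved little or to the left, and the long lines to the right belong to ABCA3, ABCA2 and ABCB1 and to members with a low untreated level.

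Per kilobase of transcript, ABCF1 and ABCE1 led the family in untreated cells with levels of 91.4 ± 2.22 and 52.2 ± 1.05 CPM per kilobase (SD, n = 3 each), followed by ABCD3, ABCB10, ABCF3 and ABCD4. By the longest transcript ABCC1 was the most abundant drug efflux member with 18.1 ± 0.40, above ABCC5 with 13.4 ± 0.47 and ABCC4 with 9.59 ± 0.42. ABCB1 stood at 3.25 ± 0.37 and reached 8.02 ± 0.32 after VPA, from rank 17 to rank 14 of the 46. ABCA3 went from 5.63 ± 0.089 at rank 14 to 13.3 ± 0.11 at rank 9. ABCC9 went from 0.040 ± 0.0072 to 0.48 ± 0.083 and stayed among the low members, at rank 26. With the median transcript length in place of the longest, the ranks of ABCB1 were 16 and 8 and those of ABCA3 were 17 and 15, and ABCC1 no longer led the drug efflux members, so the order between genes depends on the length used.

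Promoter sequence was read for the members that RefSeq's table holds, as the 250 bases before the start listed there. In ABCA9, ABCB9, ABCC10, ABCD3 and ABCG5 this window lay inside the outermost bounds of the gene. In the other members it lay just before them. Of the 46 members 35 had an entry. The letters GGGCGG (the GC box that SP1-like factors bind), searched on both strands, occurred in 5 of 7 up-regulated members, in 13 of 20 other tested members and in 0 of 8 members that were not tested. The share was 66.8% over the promoters of 11739 tested genes and 42.3% over all 27305 promoters. CCAAT on either strand occurred in 6 of the 35, against 33.0% of all promoters, and TATAAA in 5, against 11.1%. The GC content had a median of 61.6% in the up-regulated, 65.8% in the other tested and 45.6% in the untested members. The following are shown for the up-regulated members ABCA1, ABCA3 and ABCC9, for ABCC5, which was lower, and for the up-regulated ABCB1, 5′ to 3′ on the strand of the gene, with each GGGCGG or CCAAT and its reverse complement in capitals. In that order they lie at chr9:104928156-104928405, chr16:2340729-2340978, chr12:21941427-21941676, chr3:184017885-184018134 and chr7:87713296-87713545 of GRCh38.p14, each on the minus strand.
ABCA1: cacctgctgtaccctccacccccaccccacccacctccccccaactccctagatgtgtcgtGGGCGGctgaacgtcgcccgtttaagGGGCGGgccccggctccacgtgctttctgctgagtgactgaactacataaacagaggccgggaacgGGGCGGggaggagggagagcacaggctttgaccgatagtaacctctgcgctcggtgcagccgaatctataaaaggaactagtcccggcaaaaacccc
ABCA3: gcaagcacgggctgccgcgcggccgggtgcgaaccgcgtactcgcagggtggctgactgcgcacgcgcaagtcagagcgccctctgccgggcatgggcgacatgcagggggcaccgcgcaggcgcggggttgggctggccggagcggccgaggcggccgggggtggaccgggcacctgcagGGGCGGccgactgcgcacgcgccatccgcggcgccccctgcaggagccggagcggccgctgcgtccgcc
ABCC9: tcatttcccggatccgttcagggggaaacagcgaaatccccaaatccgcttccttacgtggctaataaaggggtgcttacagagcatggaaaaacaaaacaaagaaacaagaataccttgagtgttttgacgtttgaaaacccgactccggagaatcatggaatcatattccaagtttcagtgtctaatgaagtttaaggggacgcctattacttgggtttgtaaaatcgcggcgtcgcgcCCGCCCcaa
ABCC5: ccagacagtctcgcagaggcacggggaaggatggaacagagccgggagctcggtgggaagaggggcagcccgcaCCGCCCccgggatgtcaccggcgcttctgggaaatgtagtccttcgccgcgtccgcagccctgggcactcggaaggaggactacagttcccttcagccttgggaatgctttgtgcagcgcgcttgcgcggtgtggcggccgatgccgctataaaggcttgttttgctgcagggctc
ABCB1, outer start: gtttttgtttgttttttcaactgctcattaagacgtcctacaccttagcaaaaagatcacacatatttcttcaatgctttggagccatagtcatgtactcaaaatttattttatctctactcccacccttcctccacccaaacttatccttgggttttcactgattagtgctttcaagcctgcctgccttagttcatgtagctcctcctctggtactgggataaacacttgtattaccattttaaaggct
ABCB1 has a second start in GENCODE 44, 112.4 kb further into the gene at position 87600884, and both are shown because gene counts do not tell which one was used. The 250 bases before it lie at chr7:87600885-87601134 of hg38 on the minus strand.
ABCB1, inner start: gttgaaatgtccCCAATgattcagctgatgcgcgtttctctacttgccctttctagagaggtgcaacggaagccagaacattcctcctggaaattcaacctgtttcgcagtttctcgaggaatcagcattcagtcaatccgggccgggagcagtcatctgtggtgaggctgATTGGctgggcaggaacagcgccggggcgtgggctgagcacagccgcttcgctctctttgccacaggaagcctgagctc
The window of ABCA1 holds 3 GC boxes and 1 TATAAA, and those of ABCA3, ABCC9 and ABCC5 hold 1 GC box each, with 1 TATAAA in ABCC5. Neither window of ABCB1 holds a GC box, and the inner one holds 2 CCAAT matches. The GC content was 39.2% before the outer and 55.6% before the inner start.

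Members that lie close together did not move as blocks in every case. Besides ABCB1 and ABCB4, ABCC1 and ABCC6 lie 6.5 kb apart on chromosome 16 and were both higher, by 0.24 and 0.55 on the log2 scale. ABCC5 and ABCF3 lie 168.3 kb apart on chromosome 3 and were both lower. ABCB8 and ABCF2 lie 163.7 kb apart on chromosome 7, where ABCF2 was lower and ABCB8 did not pass. ABCA4 and ABCD3 lie 264.0 kb apart on chromosome 1, the first with 1 and 28 counts in the conditions and the second level. On chromosome 17 the cluster of ABCA5, ABCA6, ABCA8, ABCA9 and ABCA10 held 1 member with enough counts to test, ABCA5. ABCA10 overlaps ABCA5 on the same strand. DLK2 overlaps ABCC10, OGFOD2 and ARL6IP4 overlap ABCB9, ANAPC10 and OTUD4 overlap ABCE1 and LONP2 overlaps ABCC11, so that the division of reads between these genes is also uncertain.

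Other genes of ABC transport were taken from lists made by function, for which the alternatives were not run. Their counts stand beside 12.0% of all tested genes up-regulated, 32.9% higher and 30.0% lower. TAP1 and TAP2, the ABC peptide transporters of antigen presentation, were both higher, with log2 fold changes of 0.47 and 0.15 (adjusted p = 4.17e-06 and 0.00778, edgeR), and CFTR had 16 counts and was not tested. Of 13 nuclear receptors and sensors that regulate ABC genes 10 were tested, 3 were higher and 5 lower. RXRG, a retinoid X receptor, was the 1 up-regulated, from 57.8 ± 8.77 to 270 ± 12.4 normalized counts (SD, n = 3 each; log2 fold change 2.22, adjusted p = 3.24e-13, edgeR). The liver X receptors NR1H3 and NR1H2, known activators of ABCA1 and ABCG1, were lower, with -0.46 and -0.21 (adjusted p = 0.000888 and 0.0359), while the xenobiotic receptors NR1I2 and NR1I3 had 1 and 12 counts and were not tested.

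Of 11 apolipoproteins and other lipid acceptors 6 were tested, 3 up-regulated and 1 lower. APOD, 1 of the 3, had 1.39 ± 0.61 and 20.8 ± 8.39 normalized counts (SD, n = 3 each). It entered the test only through the VPA-treated libraries. APOE, which takes up cholesterol from ABC transporters in brain, went from 64.0 ± 6.66 to 185 ± 14.3 and CLU from 190 ± 25.3 to 603 ± 43.8 normalized counts (SD, n = 3 each; log2 fold changes 1.53 and 1.67, adjusted p = 3.67e-10 and 3.1e-13, edgeR). Of 18 organic ion uptake carriers, the SLCO and SLC22 genes that bring drugs into cells, 7 were tested, 3 up-regulated and 6 higher in all. SLCO2A1 and SLCO4C1 had 2.27 and 2.02 on the log2 scale (adjusted p = 8.81e-09 and 9.82e-13, edgeR). SLCO3A1, the other one up-regulated, had 2.43 ± 1.20 and 39.0 ± 4.01 normalized counts (SD, n = 3 each) and entered the test only through the VPA-treated libraries. Of 20 glutathione S-transferases, which make conjugates that ABCC proteins export, 12 were tested, 7 were higher, 3 lower and 0 up-regulated. The 16 genes of peroxisome biogenesis were all tested, 3 were higher and 5 lower, with a median log2 fold change of -0.021, and 0 were up-regulated.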

How the data were processed

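RNA-seq of 3 untreated and 3 VPA-treated HEK293T libraries was analysed. Reads were cleaned by SOAPnuke and mapped to hg38 by STAR (2.7.10b in the submitters' processing notes), and the authors deposited the raw count per gene from htseq-count, for which the processing notes give HTSeq 2.0.1 and the paper another release. The annotation and strand setting are not given in the sources used here. The 5 summary lines of the counting were left out. Reads off any gene were 6.80% to 7.69% of those listed, those matching several genes 1.97% to 2.10% and those aligned to several places 2.81% to 2.92%, which lowers counts of genes with near-identical copies or overlaps.

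Tests used edgeR 4.0.16 under R 4.3.3 (TMM, filterByExpr with a count minimum of 10, quasi-likelihood fit on condition with robust dispersion, prior count 0.125), with Benjamini-Hochberg adjustment over the 15298 genes tested. The square root of F divides the log2 fold change to give its standard error. Thresholds are those of the study. The alternatives were DESeq2 1.42.0, other scalings and filters, a prior count of 2, glmTreat, a block for the replicate number, and omission of each library in turn. The members, classes and lists were chosen with earlier results of these data known. Values by library are given for the drug efflux members, for members called at both thresholds and, of the members past the adjusted p alone, for the 3 with the largest change in each direction. Non-members are named only from the lists or where they overlap a member, and the pairs of members whose ratio is given were chosen after their values were seen. By symbol, 46 members matched RefSeq coordinates on GRCh38.p14 and 35 its promoters, and 46 matched transcript lengths of GENCODE 44. Libraries of a condition differed by more than sampling noise (chi-square per gene 1.62 to 4.63) and each counted as 1 replicate. Some of the untested members and markers are not reported here by name.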

Additional observations from a re-analysis of the deposited data

How the results depend on the processing

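Of 432 comparisons of the 31 tested members with an alternative 396 kept direction and calls, and the 10 up-regulated members kept theirs in each fit that tested them, apart from glmTreat, which called 7 members. The up-regulated members numbered 16 without a filter, beside 2519 of the 26353 genes it tests, and 7 to 12 elsewhere. Over all genes, at least 10 counts in every library gave 1179 up- and 43 down-regulated genes against 1833 and 77, no filter gave 162 down-regulated, and library totals gave 38 down-regulated and 2372 lower against 4591. Library totals move the median log2 fold change of all genes from 0.0058 to 0.14, and upper quartile scaling to 0.071. The share of higher genes among those past the adjusted p was 52.3% with TMM, 63.0% with upper quartile and 73.9% with library totals.

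The median of drug efflux members, 0.18, was 0.22 with DESeq2, 0.24 with upper quartile, 0.31 with library totals and 0.22 without a filter, and 0.16 to 0.22 with a library left out. That of lipid and organelle transporters, 0.60, was 1.22 with DESeq2, 0.73 with library totals, 1.20 without a filter and 0.47 with at least 10 counts in every library, and 0.60 to 0.81 with a library left out. Their difference of -0.42 was -1.0, -0.97 and -0.27 with DESeq2, no filter and that minimum, and -0.64 to -0.42 with a library left out. DESeq2, no filter and the minimum change which members enter. Leaving out a library also changed the genes that enter, to between 15478 and 15616 from 15298. Without any untreated library, or without VPA library 1 or 3, the lipid and organelle median was the value of ABCA2 alone. An odd number of these members thus entered there, in place of 16. How far this moved the medians was not tested.

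ABCC2 changed sign within its error, with -0.011 in DESeq2, -0.0069 without a filter, and -0.21 to 0.20 with a library left out. With library totals ABCB8 was at 0.027, ABCC10 at 0.066 and ABCD4 at 0.069, the last at 0.0022 with upper quartile, none past the threshold.

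The replicate block gave 10 up-regulated members, 19 higher and 8 lower, adding ABCD3 and ABCB8, at 1835 up- and 77 down-regulated genes. Over all genes it gave 5357 higher and 5100 lower at the adjusted p alone, against 5037 and 4591. Across genes, deviations from the condition means had r of 0.13, 0.018 and 0.071 between same-numbered libraries. Between differently numbered ones r ran from -0.098 to 0.031. Whether equal numbers mark a pairing was not tested. Of the 15 members with under 50 counts 6 were up-regulated without the filter, beside 2519 of 26353 genes. With the filter 0 could be tested, so depth limits what can be said of them.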
